A study of Mus musculus with 8 samples.

Results

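The RNA of 10 genes that write, maintain or remove DNA methylation was followed in mouse N33 embryonic stem cells (ESCs), chosen by name from 20278 genes listed in the files. They were Dnmt1 and Uhrf1, Dnmt3a, Dnmt3b and Dnmt3l, Tet1, Tet2, Tet3 and Tdg, and Prdm14. RNA-seq was made from 4 culture conditions with 2 replicates each. ESCs of group G grew on gelatin without feeders in medium with 20% fetal bovine serum, and those of group F grew in serum on feeders, which were mouse embryonic fibroblasts treated with mitomycin C. Group F2i had feeders and serum with 2i added. 2i is a pair of inhibitors, of GSK3 (CHIR99021) and of MEK (PD0325901), whose dose in F2i was not given in the labels. Group NB2i had neither feeders nor serum and grew in N2B27 medium with 3 µM CHIR99021 and 1 µM PD0325901 on poly-L-ornithine and laminin. LIF was present at 1000 U/ml in every group, and ESCs grown on feeders were separated from them by adherence before RNA was taken. All samples came from one ESC line, and the replicates were described as biological duplicates, with nothing further on whether they were separate cultures, so p-values measure the spread between these samples.

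DNA methylation at CpG sites is copied after replication by DNMT1, which UHRF1 brings to hemimethylated DNA. New methylation is set by DNMT3A and DNMT3B, with DNMT3L as a catalytically inactive partner. TET enzymes oxidize 5-methylcytosine, and TDG excises the oxidized products, which base excision repair then replaces. PRDM14 is a pluripotency factor known to repress de novo methyltransferase genes in ESCs, and culture in 2i is known for low global methylation. DNA methylation itself was not measured here.

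Levels are given as FPKM, reads per transcript length and library depth, so that genes can be compared per length. Changes are log2 fold changes of edgeR's quasi-likelihood test with their standard errors (SE), and a gene was called at an adjusted p (Benjamini-Hochberg over the 15287 genes tested) under 0.05. All 10 genes were tested. Samples held 20129641 to 20664488 expected counts. Duplicates were so close (biological coefficient of variation 3.25%) that very small changes were called, and with 2 samples a group the smallest exact permutation p is 0.3333. Pou5f1, a defining ESC marker, was at 569.14 to 765.13 FPKM in all samples. The 10 ESC markers summed to 4140 to 4845 FPKM, of which Dppa5a alone was 1757.21 to 2294.37. Single markers moved in opposite directions, such as Utf1 from 458.63 to 496.91 in G to 46.65 to 47.55 in NB2i and Klf4 from 54.23 to 54.71 in G to 144.41 to 146.25 in NB2i. The summed level of 15 fibroblast markers was 16.83 and 16.85 FPKM in G, 241.2 and 254.8 in F, 633.4 and 623.6 in F2i, and 7.30 and 6.75 in NB2i. Of these markers, 14 were higher and 0 lower in F than in G, against 21.7% and 18.5% of all genes. From F to F2i, 11 were higher and 0 lower, against 27.3% and 27.4% of all genes. Collagen Col3a1 was at 0.05 to 0.10 FPKM in G and at most 0.03 in NB2i, and Lum was at 0 in both groups. Other markers were not near 0 without feeders, such as Thy1 (4.45 to 4.51 FPKM) and Col1a1 (2.47 to 2.59) in G. Fbln2 was at 1.69 to 1.84 in G and 3.13 to 3.30 in NB2i. Twist1 was at 2.45 to 2.63 in G, 2.65 to 3.14 in F and 2.25 to 2.70 in F2i. In bulk RNA, fewer cells of a type and less RNA per cell cannot be told apart, and the part of fibroblast RNA in the changes of F and F2i below was not tested.

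The 2i cultures held far less RNA of the de novo methyltransferases, while Dnmt1 and Uhrf1 were kept or higher. In NB2i against G, Dnmt3l was 31.5-fold, Dnmt3a 11.5-fold and Dnmt3b 8.06-fold lower, and Prdm14 was 4.68-fold higher. In F2i against F the order was another, with Dnmt3a 5.11-fold, Dnmt3b 3.61-fold and Dnmt3l 2.03-fold lower and Prdm14 2.43-fold higher. Feeders in serum alone went with less Dnmt3b (2.18-fold) and Dnmt3l (1.64-fold), but with 1.15-fold more Dnmt3a.

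**Figure D1:**
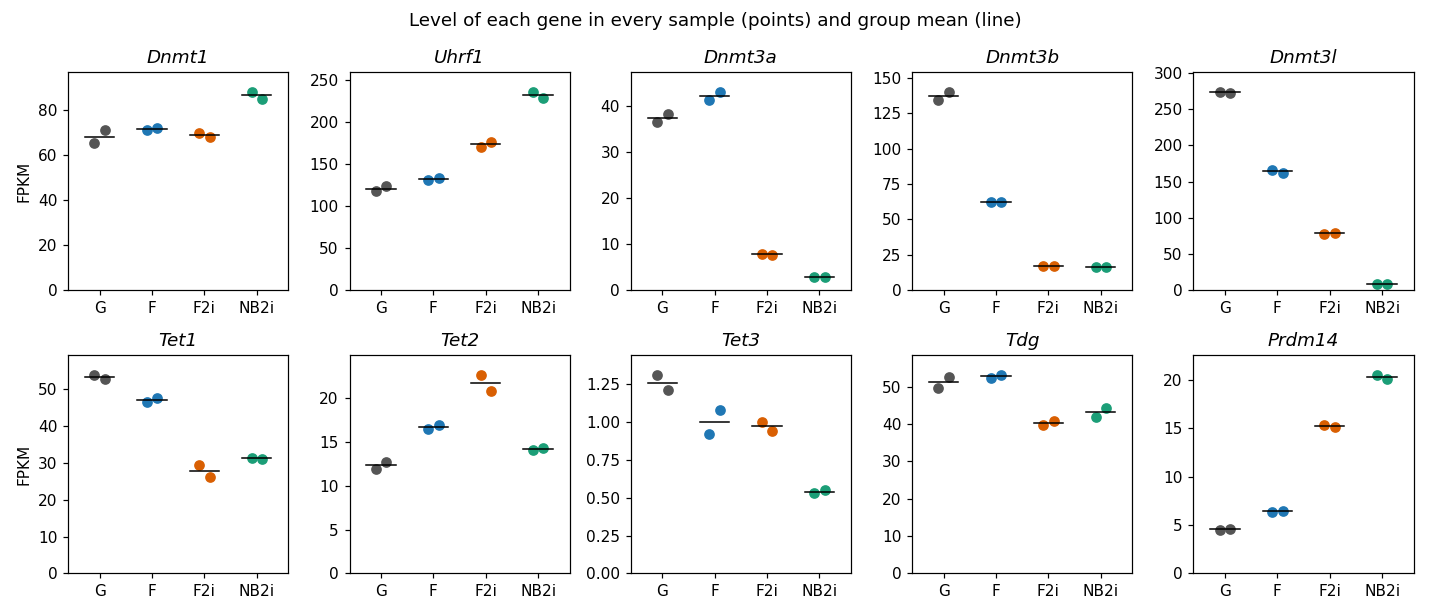
Level of each of the 10 genes in FPKM (vertical axis, from 0, with its own scale in each panel) in the 2 samples of each group (points), with the group mean as a line. Dnmt3a falls from 36.61 to 43.17 FPKM without 2i to at most 7.91 with 2i, Dnmt3l falls from group to group, and Prdm14 and Uhrf1 are highest in NB2i.

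All 3 Dnmt3 genes fell in F2i against F and in NB2i against G, and the Dnmt3a gene has starts far apart. The sequences before the starts of these genes are therefore shown. They are the 250 bases before the RefSeq transcript start on GRCm38.p6, plus strand, with CpG in capitals. The first precedes a start of the long Dnmt3a transcripts (chr12:3806730-3806979) and the second the internal start of the short Dnmt3a2 transcript (chr12:3891494-3891743). The third precedes Dnmt3b (chr2:153649199-153649448) and the fourth a start of Dnmt3l (chr10:78049592-78049841).
Dnmt3a long: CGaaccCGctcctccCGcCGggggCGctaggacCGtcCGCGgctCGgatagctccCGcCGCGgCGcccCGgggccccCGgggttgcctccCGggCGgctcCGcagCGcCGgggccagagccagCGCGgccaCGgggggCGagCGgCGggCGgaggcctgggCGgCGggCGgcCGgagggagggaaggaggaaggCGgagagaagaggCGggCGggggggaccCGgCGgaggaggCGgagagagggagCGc
Dnmt3a short: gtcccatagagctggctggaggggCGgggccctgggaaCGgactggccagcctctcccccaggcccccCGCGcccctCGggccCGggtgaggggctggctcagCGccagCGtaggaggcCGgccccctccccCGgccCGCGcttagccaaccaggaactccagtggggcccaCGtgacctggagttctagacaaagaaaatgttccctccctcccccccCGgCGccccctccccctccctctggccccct
Dnmt3b: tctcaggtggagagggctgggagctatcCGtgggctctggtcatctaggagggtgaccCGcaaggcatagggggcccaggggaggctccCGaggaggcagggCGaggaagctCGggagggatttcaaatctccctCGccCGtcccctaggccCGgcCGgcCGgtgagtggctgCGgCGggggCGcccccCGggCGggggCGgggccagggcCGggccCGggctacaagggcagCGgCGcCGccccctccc
Dnmt3l: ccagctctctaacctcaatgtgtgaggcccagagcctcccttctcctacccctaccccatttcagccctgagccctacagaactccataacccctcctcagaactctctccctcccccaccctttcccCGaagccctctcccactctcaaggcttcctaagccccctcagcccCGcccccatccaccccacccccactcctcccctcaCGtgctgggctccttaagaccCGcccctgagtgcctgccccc
The window of the long Dnmt3a start held 38 CpG, that of the short start 15, that of Dnmt3b 21 and that of Dnmt3l 4, against a median of 6 over all 32851 windows of this length. Of the 10 genes, the 9 other than Prdm14 were matched by symbol to windows in the RefSeq table (16 in all). The Tet2 window held the most CpG of the 16, with 51, and a Dnmt1 window the fewest, with 2. The GC box letters GGGCGG, read on either strand, occurred 5 times before the long Dnmt3a start, once before the short start, 3 times before Dnmt3b and 2 times before Dnmt3l, and at least once in 32.7% of all windows. The E-box letters CACGTG, the same on both strands, occurred once before the short Dnmt3a start and once before Dnmt3l, and in 6.02% of all windows. The 2 other Dnmt3l windows held neither of these motifs. The core promoter letters TATAAA, on either strand, occurred in none of the 16 windows and in 12.4% of all. The letters TTCCCGC, known from E2F sites and read on either strand, occurred in 1 of the 16, before a Uhrf1 start, and in 3.82% of all. No GC box match overlapped an E-box match in letters, and these matches are descriptions of the sequence.

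Dnmt3a (Entrez 13435; chromosome 12, 3801559 to 3914443) encodes the de novo methyltransferase of most differentiated tissues. Its level was 36.61 and 38.43 FPKM in G, 41.42 and 43.17 in F, 7.91 and 7.75 in F2i, and 2.96 and 2.90 in NB2i. No 2 groups overlapped, and both 2i groups lay far below both groups without 2i. F exceeded G by a log2 change of 0.20 (SE 0.0414, adjusted p = 0.00065). F2i was lower than F by a log2 change of −2.35 (SE 0.0467, adjusted p = 6.2e-20), and NB2i was lower than G by −3.53 (SE 0.0529, adjusted p = 1.7e-22). Between the 2i groups, NB2i was 2.58-fold lower than F2i (log2 change −1.37, SE 0.0581, adjusted p = 9.8e-15).

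RSEM also gives each gene a length averaged over its transcripts by their estimated abundance, and for Dnmt3a this length differed between the groups. It was 8988.54 and 9031.27 bases in G, 9033.93 and 9004.28 in F, 9267.50 and 9294.72 in F2i, and 9634.97 and 9499.65 in NB2i. The groups without 2i overlapped, and both 2i groups were above them. The Dnmt3a transcripts of the files are 9685 and 8737 bases long from the upstream starts and 5424 bases long for Dnmt3a2, by the GENCODE annotation. Across the 8 samples the length varied by 7.19% for Dnmt3a, against at most 1.98% for each of the other 9 genes. The estimate rests on single reads of 50 bases and was not tested, and which of the shorter transcripts it reflects cannot be told from the mean. Expected counts of Dnmt3a fell to 573 in the lowest sample.

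**Figure D2:**
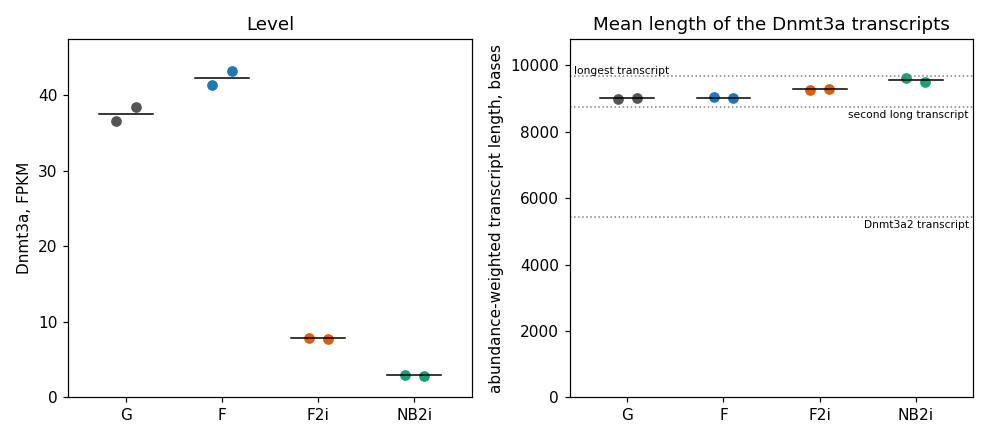
Dnmt3a level in FPKM (left) and the abundance-weighted length of its transcripts in bases (right), in the 2 samples of each group (points) with the group mean (line) and both axes from 0. Dotted lines mark the lengths of the 3 transcripts, and the mean length in NB2i (9634.97 and 9499.65 bases) is nearest to the longest.

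Dnmt3b (Entrez 13436; chromosome 2, 153649411 to 153687730) encodes the other catalytic de novo enzyme, prominent in the early embryo. Its level was 134.64 and 140.36 FPKM in G, 62.23 and 62.42 in F, 16.84 and 17.18 in F2i, and 16.50 and 16.57 in NB2i. The fall with feeders alone, a log2 change of −1.12 (SE 0.04, adjusted p = 1.5e-15), was the only one past 2-fold among the 10 genes in F against G. F2i was lower than F by a log2 change of −1.85 (SE 0.0452, adjusted p = 1.2e-18) and NB2i lower than G by −3.01 (SE 0.0451, adjusted p = 1.7e-22). The 2i groups did not differ beyond their spread, with a log2 difference of −0.04 and a 95% interval of −0.14 to 0.07 (edgeR, adjusted p = 0.55). Dnmt3b made up 78.6% and 78.5% of the summed Dnmt3a and Dnmt3b level in G, 60% and 59.1% in F, 68.0% and 68.9% in F2i, and 84.8% and 85.1% in NB2i.

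Dnmt3l (Entrez 54427; chromosome 10, 78042287 to 78063622) encodes the partner that stimulates DNMT3A and DNMT3B. It had the highest level of the 10 genes without 2i, at 273.99 and 272.34 FPKM in G and 165.97 and 162.12 in F, and was at 77.59 and 79.58 in F2i and 8.01 and 8.55 in NB2i. Each group lay below the one before in this order, with no overlap. F was lower than G by a log2 change of −0.71 (SE 0.0394, adjusted p = 3.7e-12), and F2i lower than F by −1.02 (SE 0.0419, adjusted p = 8.6e-15). NB2i was 31.5-fold lower than G (log2 change −4.98, SE 0.0554, adjusted p = 3.2e-24) and 9.47-fold lower than F2i (log2 change −3.24, SE 0.0588, adjusted p = 2.4e-21). Per unit of Dnmt3a plus Dnmt3b, Dnmt3l was at 1.60 and 1.52 in G, 1.60 and 1.54 in F, 3.14 and 3.19 in F2i, and 0.412 and 0.439 in NB2i. This ratio was thus highest in one 2i group and lowest in the other.

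In the GENCODE annotation, Aire, a transcription regulator gene known from the thymus, overlaps the upstream end of Dnmt3l on the opposite strand. Aire was listed at 16.02 and 16.38 FPKM in G, 10.26 and 9.64 in F, 6.02 and 6.28 in F2i, and 0.89 and 0.96 in NB2i, the same order of groups as Dnmt3l. The sources used here do not say that reads were counted by strand. Expected counts of Dnmt3l (276 to 9338) were whole in all 8 samples, so they show no reads divided by RSEM between Dnmt3l and another gene. What the shared stretch adds to the level of either gene was not tested. Glt8d2, which overlaps Tdg on the other strand, was at most 0.27 FPKM, and Dnmt3aos, antisense to Dnmt3a, at most 0.07.

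Dnmt1 (Entrez 13433; chromosome 9, 20907206 to 20959888), the maintenance methyltransferase, was at 65.16 and 70.93 FPKM in G, 70.79 and 71.78 in F, 69.82 and 67.99 in F2i, and 87.89 and 84.70 in NB2i. NB2i was above all other samples, and the other groups lay close together. NB2i exceeded G 1.33-fold (log2 change 0.42, SE 0.0453, adjusted p = 3.8e-08) and F2i 1.26-fold (log2 change 0.33, SE 0.0453, adjusted p = 1.6e-06). The change of F2i against F was −0.01 with a 95% interval of −0.11 to 0.08 (edgeR, adjusted p = 0.85), and that of F against G was 0.10 with an interval of 0.000679 to 0.19 (adjusted p = 0.10), called without G replicate 2 (0.16).

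Uhrf1 (Entrez 18140; chromosome 17, 56303337 to 56323486), whose protein reads hemimethylated CpG and recruits DNMT1, rose along the groups. It was at 118.22 and 123.98 FPKM in G, 130.90 and 133.28 in F, 170.73 and 176.67 in F2i, and 236.60 and 229.69 in NB2i, with no overlap. F exceeded G by a log2 change of 0.15 (SE 0.0431, adjusted p = 0.0071), F2i exceeded F by 0.44 (SE 0.0428, adjusted p = 1.6e-08) and NB2i exceeded G by 1.02 (SE 0.043, adjusted p = 3.5e-15). The call of F against G was lost without G replicate 1 (0.11) or F replicate 2 (0.14). The Uhrf1 level was 1.81 and 1.75 times the Dnmt1 level in G and 2.69 and 2.71 times in NB2i.

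Tet1 (Entrez 52463; chromosome 10, 62804570 to 62887469) encodes the main TET dioxygenase of ESCs. It was at 53.81 and 52.67 FPKM in G, 46.42 and 47.49 in F, 29.37 and 26.19 in F2i, and 31.36 and 31.09 in NB2i. F was slightly below G (log2 change −0.16, SE 0.0463, adjusted p = 0.009; −0.14 and not called without F replicate 1), and both 2i groups were lower than both groups without 2i. The fall was alike in size in both 2i comparisons, at −0.72 for F2i against F (SE 0.0471, adjusted p = 2.3e-11) and −0.70 for NB2i against G (SE 0.0468, adjusted p = 1.1e-11). NB2i was 1.13-fold above F2i (log2 change 0.18, SE 0.0473, adjusted p = 0.0028), a call that was lost without F2i replicate 2 (0.09).

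Tet2 (Entrez 214133; chromosome 3, 133463677 to 133545136), which lacks the CXXC domain of the other two TETs, moved the other way. It was at 11.93 and 12.77 FPKM in G, 16.50 and 16.92 in F, 22.66 and 20.85 in F2i, and 14.04 and 14.31 in NB2i. The highest levels were thus in F2i, not in NB2i. F exceeded G by a log2 change of 0.46 (SE 0.049, adjusted p = 1.6e-07), F2i exceeded F by 0.42 (SE 0.0472, adjusted p = 1.4e-07) and NB2i exceeded G by 0.27 (SE 0.0495, adjusted p = 5.9e-05), while NB2i was 1.53-fold lower than F2i (log2 change −0.61, SE 0.0477, adjusted p = 3.1e-10). Tet2 made up 17.8% and 19.2% of the summed Tet level in G, 25.8% in both F samples, 42.7% and 43.5% in F2i, and 30.6% and 31.1% in NB2i. The rises of Tet2 in F and F2i went along with the fibroblast markers above, and their part in it was not tested.

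Tet3 (Entrez 194388; chromosome 6, 83362373 to 83457208), known from the zygote, had the lowest level of the 10 genes. It was at 1.31 and 1.21 FPKM in G, 0.92 and 1.08 in F, 1.00 and 0.94 in F2i, and 0.53 and 0.55 in NB2i, on 121 to 296 expected counts. NB2i was 2.23-fold lower than G (log2 change −1.16, SE 0.11, adjusted p = 4.6e-09). F was below G by −0.31 (SE 0.0982, adjusted p = 0.016), a call lost with DESeq2 (−0.32), in all 3 limma fits (−0.18 to −0.31) and without G replicate 1 (−0.25) or F replicate 1 (−0.19). F2i against F gave −0.01 with a 95% interval of −0.23 to 0.20 (edgeR, adjusted p = 0.93).

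Tdg (Entrez 21665; chromosome 10, 82629814 to 82650799), the glycosylase downstream of the TETs, changed little. It was at 49.78 and 52.62 FPKM in G, 52.49 and 53.18 in F, 39.72 and 40.75 in F2i, and 41.91 and 44.37 in NB2i, so that the samples with 2i were below those without it. F2i was lower than F by a log2 change of −0.36 (SE 0.0454, adjusted p = 7.2e-07) and NB2i lower than G by −0.18 (SE 0.0451, adjusted p = 0.0012). F against G gave 0.07 with a 95% interval of −0.02 to 0.16 (edgeR, adjusted p = 0.22). NB2i was slightly above F2i (log2 change 0.11, SE 0.046, edgeR, adjusted p = 0.044). That call was lost with DESeq2 or its size factors (0.09), no filter (0.11), the compared groups alone (0.09) and the limma fits (0.10). It was also lost without F2i replicate 1 (0.08), F2i replicate 2 (0.13) or NB2i replicate 2 (0.07). Expected counts of Tdg, Tet1 and Tet2 were not all whole, so some of their reads were divided by RSEM between them and other transcripts.

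Prdm14 (Entrez 383491; chromosome 1, 13113428 to 13127163) rose along the groups, in the order in which Dnmt3l fell. It was at 4.47 and 4.63 FPKM in G, 6.37 and 6.51 in F, 15.39 and 15.13 in F2i, and 20.54 and 20.13 in NB2i, with no overlap. F exceeded G 1.44-fold (log2 change 0.52, SE 0.0831, adjusted p = 3.1e-05), F2i exceeded F 2.43-fold (log2 change 1.28, SE 0.0691, adjusted p = 8.6e-13) and NB2i exceeded G 4.68-fold (log2 change 2.23, SE 0.0708, adjusted p = 2.4e-17). NB2i was 1.34-fold above F2i (log2 change 0.42, SE 0.0593, adjusted p = 2.6e-06). Dnmt3a and Dnmt3b did not follow the order of Dnmt3l at each step. Dnmt3a was higher in F than in G (log2 change 0.20), and Dnmt3b was not called between the 2i groups (−0.04).

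**Figure D3:**
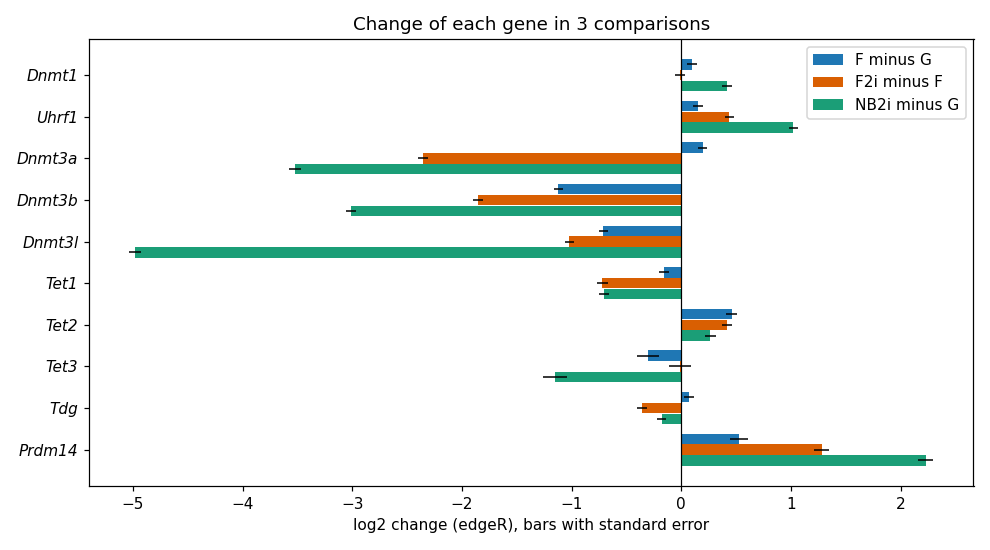
Log2 changes of the 10 genes (horizontal axis; bars with the standard error) for F minus G, F2i minus F and NB2i minus G, which share samples in part. The longest bars are those of Dnmt3l (−4.98), Dnmt3a (−3.53) and Dnmt3b (−3.01) in NB2i minus G, and Prdm14, Uhrf1 and Tet2 rise in all 3 comparisons.

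Calls among the 10 genes have to be read against the large number of calls over all genes. In F against G, 4 were higher and 4 lower, against 21.7% higher and 18.5% lower over all genes, and 0 were at least 2-fold higher and 1 at least 2-fold lower, against 5.59% and 1.65%. In F2i against F, 3 were higher and 5 lower, against 27.3% and 27.4%, and 1 was at least 2-fold higher and 3 at least 2-fold lower, against 6.44% and 7%. In NB2i against G, 4 were higher and 6 lower, against 36.9% and 35.4%, and 2 were at least 2-fold higher and 4 at least 2-fold lower, against 11.1% and 16.1%. Uhrf1 was just past 2-fold there, and without G replicate 1, or with DESeq2 or limma, 1 gene (Prdm14) was at least 2-fold higher. Without F replicate 1, 2 of the 10 were lower in F than in G. In NB2i against F, 3 were higher and 7 lower (36.3% and 37.1% of all genes), in NB2i against F2i 5 and 4 (33.3% and 30.8%, with 3 higher without F2i replicate 2), and in F2i against G 3 and 6 (34.5% and 33.3%). The median log2 change of the 10 was 0.08 in F against G, −0.19 in F2i against F and −0.44 in NB2i against G, with a median near 0 over all genes (2.66e-05, −0.0028 and 0.00991).

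The change from G to NB2i and the change from F to F2i, which share no sample, were compared by a test of their difference. NB2i differs from G also by the loss of serum and by the coating, so 2i, medium and coating cannot be told apart in that change. The 2i dose in F2i was not given, and fibroblast markers rose from F to F2i. Feeders can thus not be told apart from dose, medium and coating in the difference, and the part of fibroblast RNA was not tested. The difference was called for 8 of the 10 genes, 4 higher and 4 lower, against 26.1% higher and 22.8% lower over all genes. It was −3.96 for Dnmt3l (SE 0.0714, adjusted p = 2.4e-20), −1.17 for Dnmt3a (SE 0.0716, adjusted p = 1.7e-11) and −1.16 for Dnmt3b (SE 0.0635, adjusted p = 3e-12), so each of the 3 fell further from G to NB2i. Prdm14 (0.94, SE 0.102, adjusted p = 1.2e-07) and Uhrf1 (0.58, SE 0.0604, adjusted p = 6.3e-08) rose further. Dnmt1 rose from G to NB2i and was not called from F to F2i (difference 0.43, SE 0.0642, adjusted p = 1e-05). Tet3 fell from G to NB2i and was not called from F to F2i (difference −1.14, SE 0.152, adjusted p = 2.1e-06), and Tdg fell less there (0.18, SE 0.064, adjusted p = 0.025). The call of Tdg was lost with DESeq2 (0.15) and without G replicate 1, F replicate 2, F2i replicate 1 or NB2i replicate 2 (0.13 to 0.16). For Tet1 the difference was 0.02 with a 95% interval of −0.12 to 0.15 (edgeR, adjusted p = 0.86). For Tet2 it was −0.15 with an interval of −0.30 to −0.01 (edgeR, adjusted p = 0.07). The Tet2 difference was called with DESeq2 size factors in edgeR (−0.19) and without G replicate 1 (−0.21) or F2i replicate 2 (−0.21).

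**Figure D4:**
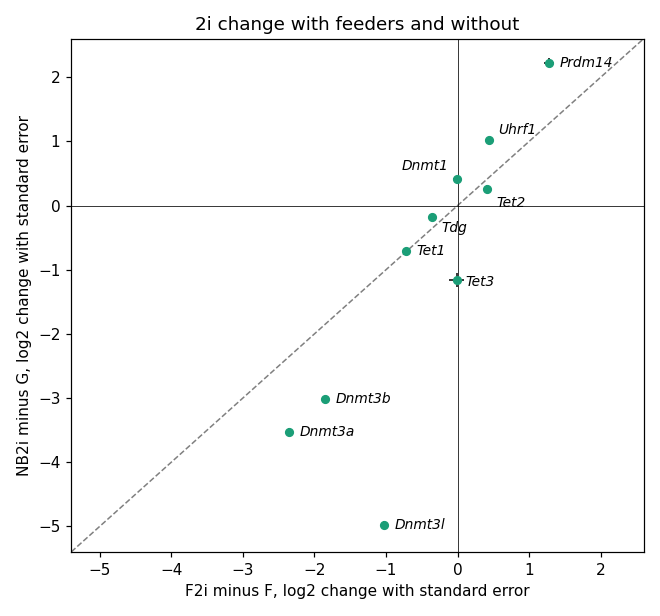
Log2 change from F to F2i (horizontal) against log2 change from G to NB2i (vertical) of the 10 genes, with standard errors and the line of equal changes. Dnmt3l lies farthest from the line (−1.02 and −4.98), and Tet1 lies on it (−0.72 and −0.70).

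The ratio of summed Dnmt3a and Dnmt3b to summed Tet1, Tet2 and Tet3 levels was taken in each sample as a measure of RNA balance, with no test. It was 2.55 and 2.68 in G, 1.62 and 1.61 in F, 0.467 and 0.520 in F2i, and 0.424 in both NB2i samples. The ratio was over 1 in all samples without 2i and under 1 in all samples with 2i, but from counts with no length correction the group means were 1.04, 0.777, 0.238 and 0.167, with F also under 1. With Dnmt3l added to the writers, the group means were 6.70, 4.16, 2.05 and 0.604, so F2i then stayed over 1 and NB2i did not. The ratio of Dnmt1 to the summed Tets was 0.972 and 1.06 in G, 1.109 and 1.096 in F, 1.32 and 1.42 in F2i, and 1.91 and 1.84 in NB2i. Dnmt1 was at 0.381 and 0.397 of the summed Dnmt3a and Dnmt3b level in G, and at 4.52 and 4.35 times it in NB2i.

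**Figure D5:**
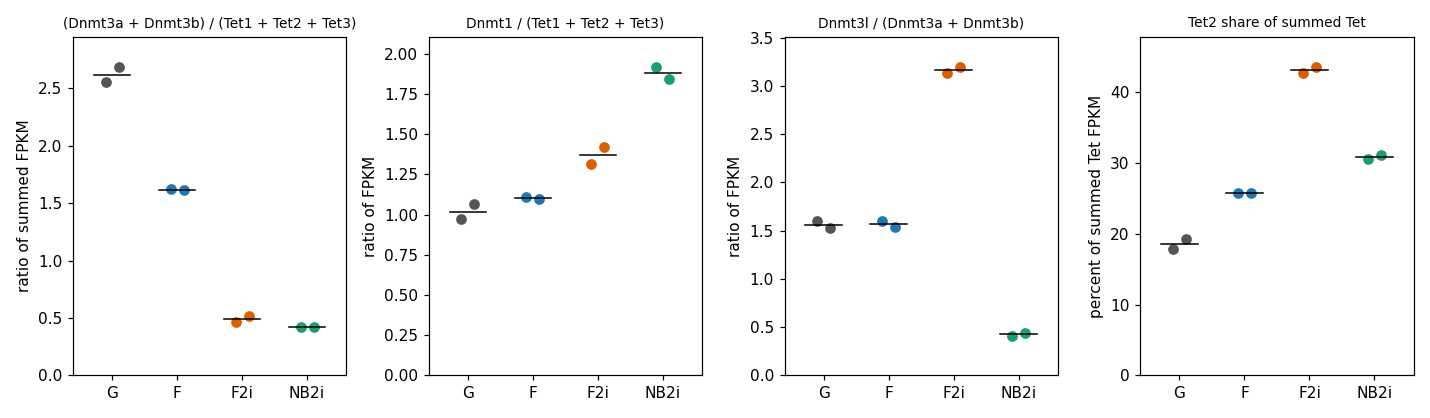
Ratios of FPKM levels in each sample (points) with the group mean (line), all axes from 0: de novo enzymes to Tets, Dnmt1 to Tets, Dnmt3l to de novo enzymes, and the Tet2 share of the summed Tets in percent. The first ratio falls from 2.55 and 2.68 in G to 0.424 in NB2i, and Dnmt3l per de novo enzyme peaks in F2i.

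Partners of maintenance methylation (8 genes) were called in both directions. In F against G 2 were higher and 2 lower (21.7% and 18.5% of all genes), in F2i against F 2 and 3 (27.3% and 27.4%), and in NB2i against G 2 and 4 (36.9% and 35.4%), with median log2 changes of 0.00371, 0.04 and −0.11. Dppa3, whose protein can displace UHRF1 from chromatin, was at 67.66 to 69.31 FPKM in G, 55.51 to 60.13 in F, 33.42 to 34.63 in F2i and 28.10 to 28.42 in NB2i, and was lower in all 3 comparisons (log2 changes −0.22, −0.73 and −1.21, adjusted p = 0.0054, 4.6e-09 and 3.4e-13). The DNA ligase Lig1 was higher in all 3 (0.15, 0.38 and 0.44), Pcna was higher in F than in G (0.21), and Cdca7 fell in F2i (−0.32). Uhrf2, a relative of Uhrf1, fell from G to NB2i (−0.47, adjusted p = 2.8e-07) while Uhrf1 rose. Of 16 replication genes, 5 were higher and 1 lower in F against G (21.7% and 18.5% of all genes), 6 and 1 in F2i against F (27.3% and 27.4%), and 8 and 1 in NB2i against G (36.9% and 35.4%). The members of that list with the largest changes were Mcm3 (0.29), Cdc6 (0.28) and Mcm4 (0.26) in F against G, Prim1 (0.37), Tyms (0.24) and Pola1 (0.21) in F2i against F, and Pola1 (0.77), Prim1 (0.47) and Cdc45 (0.37) in NB2i against G. Their median log2 changes were 0.07, 0.08 and 0.10.

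Genes of base excision and deamination (15) were called 3 higher and 3 lower in F against G (21.7% and 18.5% of all genes), 5 and 5 in F2i against F (27.3% and 27.4%), and 7 and 6 in NB2i against G (36.9% and 35.4%), with medians of −0.05, 0.07 and 0.07. The Gadd45 genes, stress-response genes linked to active demethylation, stood out in size. Gadd45a was at 62.41 to 77.06 FPKM without 2i and at 18.59 to 20.11 with it, with log2 changes of −1.87 in F2i against F (adjusted p = 5.3e-15) and −1.76 in NB2i against G (adjusted p = 4.2e-15). Gadd45g was higher with feeders (1.97-fold, adjusted p = 8.7e-09) and was 21.3-fold lower in NB2i than in G, at 0.36 to 0.60 FPKM. Gadd45b rose in F (0.48) and again in F2i (0.54) but fell in NB2i (−1.25), and the glycosylase Neil2 was lower in F than in G (−0.62).

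Of 7 TET partners and cofactors 6 were tested, and 1 was higher and 2 lower in F against G (21.7% and 18.5% of all genes), 3 and 2 in F2i against F (27.3% and 27.4%), and 3 and 1 in NB2i against G (36.9% and 35.4%), with medians of −0.04, 0.12 and 0.17. Isocitrate dehydrogenases, which make the 2-oxoglutarate that TETs use, rose with 2i. Idh2 was at 61.94 to 62.52 FPKM in G, 71.42 to 71.87 in F, 121.44 to 122.18 in F2i and 154.02 to 159.11 in NB2i (log2 changes 0.23, 0.80 and 1.40), and Idh1 rose by 0.43 in F2i and 0.96 in NB2i. Ogt, a glycosyltransferase that binds TETs, fell in F (−0.34), as did Cxxc5 (−0.24). Tfap2c was lower in F2i than in F (−0.31) and higher in NB2i than in G (0.21).

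Among 9 genes of methyl donor supply, 3 were higher and 2 lower in F against G (21.7% and 18.5% of all genes), 6 and 2 in F2i against F (27.3% and 27.4%), and 5 and 1 in NB2i against G (36.9% and 35.4%), with medians of 0.02, 0.16 and 0.22. Gnmt, which consumes S-adenosylmethionine, fell in every comparison (log2 changes −0.59, −2.36 and −3.83) to 0.14 to 0.43 FPKM. Shmt2, a mitochondrial enzyme of one-carbon metabolism, rose in F2i (0.41) and NB2i (1.05), and Mtr rose in F (0.25). The level of Mtr was highest in NB2i, at 13.51 to 14.79 FPKM in G, 16.41 to 16.81 in F, 17.19 to 18.9 in F2i and 20.28 to 20.91 in NB2i.

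Of 7 listed readers of methylated CpG and their relatives, such as Mbd3, 3 were higher and 2 lower in F against G (21.7% and 18.5% of all genes). In F2i against F the counts were 3 and 3 (27.3% and 27.4%), and in NB2i against G 4 and 2 (36.9% and 35.4%). The medians were 0.21, −0.00132 and 0.52. Zbtb38 rose to 7.89 to 8.29 FPKM in NB2i from 2.74 to 3.19 in G (log2 change 1.52, adjusted p = 4.1e-13) and also rose in F2i (0.61). Mbd1 rose in F2i (0.40) and NB2i (0.53), Mbd3 fell in F2i (−0.39), Zbtb33 fell in F (−0.30), and Mbd2 rose in F (0.21). Mbd3 was also lower in NB2i (63.74 to 64.82 FPKM) than in G (89.08 to 95.15). Zbtb33 was lower again in F2i (2.89 to 2.95) than in F (3.71 to 3.8), and was at 3.54 to 3.58 in NB2i. Of 12 histone methyltransferases and CpG island factors, 1 was higher and 5 lower in F against G (21.7% and 18.5% of all genes), 3 and 6 in F2i against F (27.3% and 27.4%), and 3 and 7 in NB2i against G (36.9% and 35.4%), with medians of −0.08, −0.13 and −0.19. Ehmt1, an H3K9 methyltransferase, was lower in all 3 comparisons (−0.21, −0.47 and −0.69), and Suv39h1, another, fell in F2i (−0.95) and NB2i (−0.76). Suv39h2 (−0.19) and Setdb1 (−0.15) fell in F, and their levels were lower still in both 2i groups. Suv39h2 was at 9.72 to 9.93 FPKM in F, 7.54 to 8.15 in F2i and 8.51 to 8.92 in NB2i. Setdb1 was at 37.7 to 37.91 in F, 32.36 to 32.97 in F2i and 32.64 to 32.91 in NB2i. Zfp57, which keeps methylation at imprinted regions, rose in F2i (0.54) and NB2i (0.64).

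For each of the 10 genes, the genes with the most similar pattern were found among 11986 others (11987 for Tet3) with a mean of at least 1 FPKM, by the root mean square difference of centred log2 values over the 8 samples. Nearest to Dnmt3a were Mmp9 (0.181), Satb1 (0.193) and Nphs1 (0.209), and nearest to Dnmt3b were Rgs11 (0.130), Syp (0.146) and Krt18 (0.185). Dnmt3l had the least close neighbours, Sncb (0.215), Bnip3 (0.243) and Ptprn (0.261). Closer patterns were found for Dnmt1, with Slk (0.0229), Sgol1 (0.0296) and Acly (0.0380), and for Uhrf1, with Arpc1b (0.0365), Igsf3 (0.0382) and Kank2 (0.0413). Tet1 was nearest to Ypel3 (0.0485), Stoml1 (0.05) and Pvrl2 (0.0508), Tet2 to Mbnl1 (0.0468), Zap70 (0.0568) and Dgke (0.0653), and Tet3 to Abtb2 (0.0555), Nup62cl (0.0715) and Dnajb5 (0.0882). Tdg was nearest to Gle1 (0.0308), C2cd3 (0.0340) and Dcaf8 (0.0390), and Prdm14 to Nynrin (0.0834), Klf8 (0.0857) and St3gal4 (0.0943). Genes of small change have close neighbours by construction, and none of the 10 was the nearest to another.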

How the data were processed

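Poly-A RNA was sequenced by the authors on a BGISEQ-500 as single-end reads of 50 bases, aligned to mm10 with Bowtie2 and quantified with RSEM. For each sample the authors deposited expected counts (RSEM estimates, not normalized, 29.8% not whole), FPKM values (those estimates per transcript length and depth) and the mean transcript length. Samples were grouped by the labels. Totals were 20129641 to 20664488 expected counts per sample.

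Rounded expected counts entered edgeR 4.0.16 (R 4.3.3; TMM, glmQLFit and glmQLFTest) in one fit of all 8 samples with a term for each condition. A gene was tested where 2 or more samples had 10 or more counts, which left 15287 genes. Adjusted p is by Benjamini and Hochberg over all genes of a comparison. A further count required a change of at least 2-fold, as in the study. Alternatives were DESeq2 1.42.0, its size factors in edgeR, no filter, the compared groups alone, the replicate number as a block, each replicate left out, and limma 3.58.1 on log2(FPKM + 1), with genes of at least 0.5 FPKM in 2 samples or unfiltered, or on log2(FPKM + 0.1). Changes on those log2 scales understate those of low genes. The code was tested on simulated data.

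Duplicates differed by more than sampling noise in counts (chi-square per degree of freedom 1.885 to 3.712), so each was kept as a sample. Same-numbered samples did not deviate together (r −0.0339 to 0.00952 over 6 pairs of groups). The 10 genes, the 12 other gene lists (partners, readers, repair, donor supply, replication, chromatin factors and markers of ESCs, fibroblasts, primitive endoderm, formative or primed epiblast and 2-cell-like cells) and the tests were chosen with earlier results of these data known. From each pathway list, up to 3 genes were named in each of 3 comparisons (F against G, F2i against F, NB2i against G), those with the largest called change whose higher group averaged 1 FPKM or more. Some genes that met this rule are not reported here. Aire, Glt8d2 and Dnmt3aos were named after their values were seen, because they overlap a listed gene. Gene positions and sequences are from RefSeq on GRCm38.p6 and transcript lengths and overlaps from GENCODE M21, the same build as mm10.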

Additional observations from a re-analysis of the deposited data

Results flagged for a closer look

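The change from G to NB2i differed from the change from F to F2i for 8 of the 10 genes, by a test of the difference in the same edgeR fit (log2 units, the first change minus the second). Of the 10, 4 were called higher and 4 lower, against 26.1% higher and 22.8% lower over all genes. From G to NB2i serum was also left out. The difference was −3.96 for Dnmt3l, whose changes were −4.98 and −1.02, and −1.17 for Dnmt3a and −1.16 for Dnmt3b. It was −1.14 for Tet3, with −1.16 and −0.01. It was 0.94 for Prdm14, 0.58 for Uhrf1 and 0.43 for Dnmt1. It was 0.18 for Tdg, a call lost under DESeq2 (0.15) and limma (0.14 on log2(FPKM + 1)).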

How the results depend on the processing

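Of the log2 changes of the 10 genes under all alternatives, 820 kept their direction and side of the threshold, 34 lost the call, 5 gained it and 11 turned direction, and the cause was not tested. Those that turned were near 0 and not called: Dnmt1 (−0.02804 to 0.008178) and Tet3 (−0.1243 to 0.118) in F2i against F with a replicate left out, and the difference of the 2i changes for Tet1, at −0.01578 with DESeq2 or its size factors, −0.01238 with limma on log2(FPKM + 1) with or without the filter, −0.01046 on log2(FPKM + 0.1) and −0.06413 to 0.09793 with a replicate left out. Genes called lower in F against G numbered 2 with unfiltered limma and 2 to 4 with a replicate left out (2 without F replicate 1, where Tet1 and Tet3 were lost). Genes called higher in NB2i against F2i numbered 3 to 5 with a replicate left out (3 without F2i replicate 2, where Tet1 and Tdg were lost). Genes at least 2-fold higher in NB2i against G numbered 1 with DESeq2, its size factors and all limma fits, and 1 to 2 with a replicate left out (1 without G replicate 1), since Uhrf1 lay just past 2-fold. The ratio of de novo enzymes to Tets was 1.04, 0.777, 0.238 and 0.167 in G, F, F2i and NB2i from counts with no length correction, and 6.70, 4.16, 2.05 and 0.604 with Dnmt3l added. The replicate block gave the same numbers of the 10 genes called, such as 4 higher and 6 lower in NB2i against G, and the samples share only a number. Depth limits Tet3 most, with 121 to 296 counts.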

Other observations

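Other cell state markers also differed between the groups, and their counts stand against 21.7% of all genes higher and 18.5% lower in F than in G, 27.3% and 27.4% in F2i than in F, and 36.9% and 35.4% in NB2i than in G. Of 8 markers of 2-cell-like cells, 8 were higher in F than in G and 7 were higher in F2i than in F, with summed levels of 1.16 and 1.26 FPKM in G, 27.48 and 28.28 in F, 64.12 and 64.85 in F2i, and 0.02 and 0.08 in NB2i. Zscan4f was highest among them, at 32.03 to 33.27 FPKM in F2i and 0 in NB2i, and near-identical copies of this family share reads. Of 9 primitive endoderm markers 8 were tested, and 8 were higher in F than in G, 6 were lower in F2i than in F, and 2 were higher and 2 lower in NB2i than in G. Of 7 formative or primed epiblast markers, 3 were higher and 2 lower in F than in G, 2 higher and 4 lower in F2i than in F, and 3 higher and 4 lower in NB2i than in G. Of 10 ESC markers, 4 were higher and 2 lower in F than in G, 6 and 2 in F2i than in F, and 7 and 3 in NB2i than in G. Of 15 fibroblast markers, 3 were higher and 9 lower in NB2i than in G.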
